A study of Mus musculus with 36 samples.

Results

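The 40 genes described here are transcribed in dividing cells, and they were chosen by name. Each row of the deposited table whose gene symbol matched a member was taken, and all 40 were found among 21705 genes. They comprise 11 S phase genes (Mcm2 to Mcm7, Pcna, Rrm1, Rrm2, Tyms and Cdc6), 24 mitotic genes such as Mki67, Top2a, Cdk1 and Cdc20, and 5 genes of cell cycle regulation and licensing (Foxm1, E2f1, Cdt1, Gmnn and Tk1). No member was listed at 0 in any of the 36 libraries. Their deposited values ran from 38.3 to 15648.9.

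Before DNA is copied, Cdc6 and Cdt1 load the Mcm helicase onto replication origins, and geminin (Gmnn) prevents a second loading. During S phase, Pcna clamps the polymerases to DNA, while ribonucleotide reductase (Rrm1, Rrm2), thymidylate synthase (Tyms) and thymidine kinase (Tk1) supply nucleotides; E2F transcription factors drive much of this set. Mitotic genes are transcribed later, largely through the CHR element in their promoters, which is bound by complexes holding the MuvB core with B-Myb and Foxm1 or, in resting cells, with pocket proteins and repressive E2F proteins. Urothelium renews slowly, whereas high-grade bladder cancer usually transcribes both sets.

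The libraries are mouse bladder cancer RNA: 9 primary UPPL tumours, 11 primary BBN tumours, 10 tumours grown from cultured lines and 6 cultures. UPPL mice carry Upk3a-CreERT2, p53f/f and Rosa26LSL-Luc, so that the promoter of Upk3a, a uroplakin gene of superficial urothelium, drives an inducible Cre recombinase. BBN mice received the bladder carcinogen N-butyl-N-(4-hydroxybutyl)nitrosamine and have the genotype label Ctrl. The line-derived tumours are labelled Untreated and came from 1 line per model: 4 from UPPL1541, 2 from BBN963 and 4 from MB49, a mouse bladder cancer cell line. The cultures are UPPL1541, BBN963, MB49 and 3 KT lines (KT1044, KT1970 and KT1975), whose origin the labels do not explain. For the UPPL1541 culture the labels give the genotype Ctrl, which played no role in the grouping. Tumours of 1 line are repeats of that line, so their p-values measure only the spread between these tumours.

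Promoters were compared first, for the letters of the E2F and CHR elements. The S phase and mitotic members had been grouped by gene name, not by these letters. RefSeq windows of 300 bases (250 before and 50 after the transcription start, build GRCm38.p6) matched 33 of the 40 members; Ccna2, Aurkb, Kif20a, Tpx2, Mcm4, Foxm1 and Gmnn had no entry. The CHR letters TTTGAA, read on both strands, occurred in 15 of 20 mitotic promoters, in 1 of 10 S phase promoters and in 20.2% of all 27025 promoters. The E2F letters TTTCCCGC, TTTCGCGC, TTTGCCGC or TTTGGCGC occurred in 1 of 20 mitotic promoters, in 5 of 10 S phase promoters and in 2.6% of all promoters. CCAAT, the NF-Y letters, occurred in 17 of 20 mitotic and 8 of 10 S phase promoters, against 41.1% of all. A match is a description of letters in this window, not a site shown to be bound. In lists that held no member, CHR letters occurred in 22 of 32 promoters of further mitotic genes (68.8%) and E2F letters in 10 of 27 promoters of further replication genes (37.0%).

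Stretches of 4 mitotic promoters illustrate the arrangement of CCAAT and CHR near the start. Capitals mark TTTGAA, which from the other strand reads TTCAAA, and also CCAAT, which reads ATTGG there. The stretches lie at chr4:118437344-118437463 on the minus strand for Cdc20, an activator of the anaphase-promoting complex; at chr2:164769809-164769928 on the plus strand for Ube2c, the ubiquitin-conjugating enzyme of that complex; at chr11:99024190-99024309 on the minus strand for Top2a, the topoisomerase that untangles chromosomes; and at chr19:37376262-37376381 on the plus strand for Kif11, a spindle motor.
Cdc20: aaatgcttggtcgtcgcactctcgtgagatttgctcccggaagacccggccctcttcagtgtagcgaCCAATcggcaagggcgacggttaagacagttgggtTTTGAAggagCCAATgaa
Ube2c: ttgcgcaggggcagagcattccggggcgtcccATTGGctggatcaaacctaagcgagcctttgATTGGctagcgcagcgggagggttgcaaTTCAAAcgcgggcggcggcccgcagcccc
Top2a: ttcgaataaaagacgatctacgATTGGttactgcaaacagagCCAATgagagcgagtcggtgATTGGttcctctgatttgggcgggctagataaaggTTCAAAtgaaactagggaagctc
Kif11: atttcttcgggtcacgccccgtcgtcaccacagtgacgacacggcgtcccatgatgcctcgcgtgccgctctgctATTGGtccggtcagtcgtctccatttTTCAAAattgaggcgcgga

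Stretches of 3 S phase promoters show the E2F letters instead. Capitals mark the E2F letters on either strand (the other strand reads GCGGGAAA, GCGCGAAA, GCGGCAAA or GCGCCAAA) and CCAAT. In Mcm5 and Mcm6, matches on opposite strands overlap and form a longer run of capitals. The stretches lie at chr11:98907991-98908150 on the plus strand for Cdc6, at chr8:75109349-75109508 on the plus strand for Mcm5 and at chr1:128359706-128359865 on the minus strand for Mcm6.
Cdc6: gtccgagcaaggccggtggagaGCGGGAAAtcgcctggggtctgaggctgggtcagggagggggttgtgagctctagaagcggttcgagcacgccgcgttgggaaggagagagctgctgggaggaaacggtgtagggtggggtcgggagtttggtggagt
Mcm5: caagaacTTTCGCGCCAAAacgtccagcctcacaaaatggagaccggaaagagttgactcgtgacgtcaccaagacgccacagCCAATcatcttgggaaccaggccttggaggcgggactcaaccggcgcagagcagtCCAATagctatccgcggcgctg
Mcm6: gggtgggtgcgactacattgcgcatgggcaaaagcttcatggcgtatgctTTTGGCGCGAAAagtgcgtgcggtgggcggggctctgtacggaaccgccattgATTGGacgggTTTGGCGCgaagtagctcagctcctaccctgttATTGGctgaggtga

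Values are deposited units: the gene estimate scaled so that the 75th percentile of a library's values above 0 lies at 1000. Recovered reads numbered 9.29 to 17.93 M a library. The commonest low value stood for 1 read in cultures and for 2 to 19 reads in tumours, reaching 10 reads in 5 libraries (BBN963 tumour 1, MB49 tumour 1 and primary tumours BBN962, UPPL1595 and UPPL1597). Trp53, the gene floxed in UPPL mice, ranged from 30.4 to 158.2 (median 59.8) in primary UPPL and from 795.5 to 2265.7 (median 1577.8) in primary BBN tumours, which do not overlap; exons are summed, so a partial deletion need not bring it to 0. Levels of different genes were not compared, since no gene lengths were used. In bulk RNA, fewer dividing cells and less RNA per dividing cell cannot be told apart.

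Between primary UPPL and BBN tumours, 2 of the 40 members passed: Kif23 was higher and Cdc20 was lower in UPPL. To pass, a member needed a limma p under 0.05 after Benjamini-Hochberg adjustment, fitted on log2(value + 1) of all 12818 genes tested, of which 18.5% passed (5.71% higher and 12.8% lower in UPPL). Every member's range in UPPL overlapped its range in BBN; groups that did not overlap made up 0.687% of genes. The median log2 difference, UPPL minus BBN, was -0.02 over S phase, -0.24 over mitotic and -0.49 over regulator genes, against -0.19 over all genes tested. Without adjustment, 7 of 40 had a p under 0.05: 3 mitotic, 1 S phase and 3 regulator genes.

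Cdc20 (gene ID 107995) ran from 267.8 to 630.9 with a median of 401.3 in UPPL tumours and from 551.9 to 1977.6 with a median of 667.9 in BBN tumours. UPPL1591, UPPL1694 and UPPL1597 stood above the lowest BBN tumours, BBN976 and BBN975, and the rest did not overlap. The log2 difference was -1.02 (SE 0.244, limma adjusted p = 0.0067), and Cdc20 passed in all 28 alternative analyses. Kif23 (gene ID 71819), a kinesin of the central spindle needed for cytokinesis, ran from 718.1 to 1657.3 with a median of 948.6 in UPPL and from 307.4 to 1531.1 with a median of 464.9 in BBN. The BBN tumours BBN963, BBN969 and BBN973 lay within the UPPL range, and the other 8 lay below every UPPL tumour. The log2 difference was 0.79 (SE 0.255, limma adjusted p = 0.0348). Kif23 missed the threshold without any 1 of BBN962, BBN964, BBN965, BBN968, BBN972, BBN976, UPPL1598, UPPL1612 or UPPL1694 (adjusted p 0.0509 to 0.0618), and without the 5 libraries of coarse low values (0.0658).

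The remaining mitotic genes did not pass. Mki67, the gene of the proliferation antigen Ki-67, had a median of 3447.2 (2704.0 to 5105.9) in UPPL and 3576.6 (2198.2 to 6446.0) in BBN. Top2a had a median of 2396.5 (1825.4 to 3553.4) against 3174.2 (1521.3 to 10128.5), with a log2 difference of -0.46 (limma adjusted p = 0.204). For Cdk1, the kinase that starts mitosis, the medians were 998.7 (658.9 to 1179.4) and 944.8 (739.9 to 3206.9). In all 3 genes the highest value was that of a BBN tumour, and the ranges overlapped. Ccnb1, which encodes cyclin B1, the partner of Cdk1, had medians of 348.2 (211.7 to 480.0) and 327.7 (207.0 to 932.6).

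Of 11 S phase genes, 0 passed in primary tumours, with limma or with edgeR. Mcm2, a helicase subunit, had a median of 1128.9 (590.6 to 1501.5) in UPPL and 1027.0 (713.1 to 2057.8) in BBN; Mcm5 had 886.5 (724.7 to 1119.5) and 880.6 (616.9 to 2277.4). Pcna stood at 764.8 (663.7 to 1141.0) and 776.3 (685.2 to 1706.0), Rrm2 at 1200.8 (650.7 to 2329.8) and 1063.1 (574.3 to 2720.8), and Tyms at 487.8 (371.3 to 860.8) and 479.7 (248.3 to 1032.5). Cdc6 had the widest relative range of these, 48.7 to 423.1 with a median of 165.1 in UPPL, and 59.5 to 378.9 with a median of 138.6 in BBN. These groups overlapped throughout. Nearest to the threshold were Mcm6, with a log2 difference of -0.59 (limma adjusted p = 0.0671), and the licensing factor gene Cdt1, at -0.66 (0.0641).

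The regulators did not pass either. Foxm1, the factor that activates mitotic genes, had a median of 650.1 (370.8 to 887.1) in UPPL and 450.6 (297.4 to 1025.2) in BBN. E2f1 had a median of 106.4 (38.3 to 185.8) and 157.5 (83.6 to 305.0), a log2 difference of -0.66 (SE 0.293, limma adjusted p = 0.115). Spread of the members within a model was above that of all genes for BBN tumours and just below it for UPPL tumours. The median SD of the members on the log2 scale was 0.62 among BBN and 0.49 among UPPL tumours, against 0.47 and 0.53 over all genes with a mean of at least 100. Primary tumour BBN963 was the highest of the 11 in 32 of 40 members, including 11 of 11 S phase genes, and BBN976 was the lowest in 14. Among UPPL tumours, UPPL1694 was the highest of the 9 in 12 of 24 mitotic genes but in 2 of 11 S phase genes. How often these tumours were highest or lowest over all genes was not counted.

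**Figure D1:**
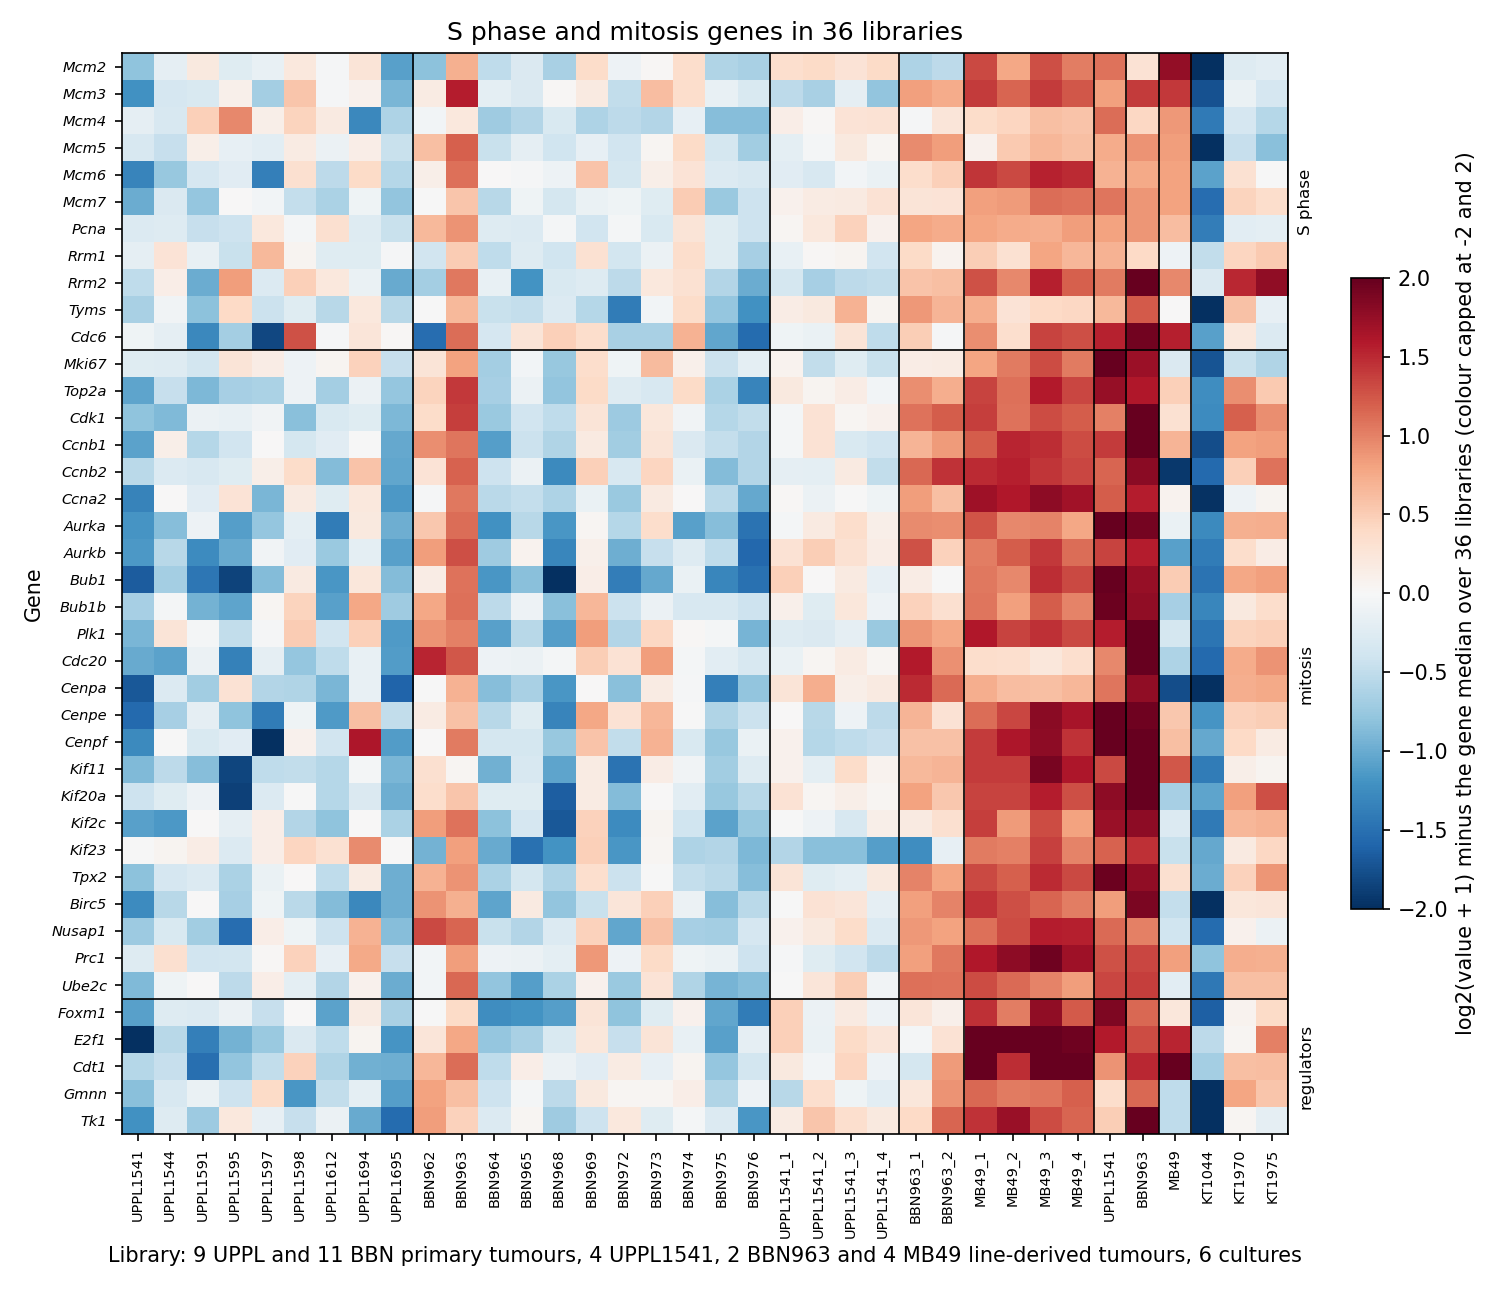
Heat map of the 40 members (vertical axis, grouped as S phase, mitotic and regulator genes) in the 36 libraries (horizontal axis, by group); colour is the log2 difference from the gene's median over libraries, capped at -2 and 2. In the MB49 culture most S phase genes lie above their median while Ccnb2 and Cenpa lie far below theirs; KT1044 is low in S phase and mitotic genes, and primary BBN963 is high in most members.

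Lists of other genes from the same pathways were counted in this fit, where 5.71% of all genes were higher and 12.8% lower in primary UPPL tumours. Of 35 further replication genes, 0 were higher and 3 were lower in primary UPPL tumours: the primase gene Prim1 (log2 difference -1.08, limma adjusted p = 0.0084), Rpa2 of the single-strand binding complex (-0.98, 0.0163) and the polymerase epsilon subunit gene Pole2 (-1.36, 0.0371). Mcm10 (-0.47) and Cdc45 (0.20), which act in origin firing, did not pass. Of 40 further mitotic genes, 0 were higher and 1 was lower, Fam64a (-1.06, 0.0246); the kinetochore genes Ndc80 (-0.09) and Nuf2 (-0.45) did not pass. Of 22 genes of G1 and the pocket protein pathway, 0 were higher and 7 were lower, among them the repressive E2F gene E2f6 (-1.28, 0.00952). Of 13 inhibitor and arrest genes, 2 were higher, Wee1, the kinase that holds Cdk1 inactive (0.91, 0.00383), and Gadd45a (1.12, 0.0182), and 1 was lower; Cdkn1a, the p53 target that encodes p21 (0.59, 0.183), and Cdkn1b (-0.02, 0.957) did not pass. In the same fit 5 of 9 macrophage markers were lower in UPPL (summed level 623 to 2244, against 1756 to 7965 in BBN), and 3 of 10 epithelial markers were higher. Lower in UPPL were also 3 of 6 smooth muscle markers (median over the 6, -3.82), 2 of 3 T cell markers tested (median -2.17) and 1 of 8 fibroblast markers (median -2.57). Summed smooth muscle markers ran from 17 to 28332 in UPPL and from 65 to 125385 in BBN, and summed fibroblast markers from 364 to 7027 and from 296 to 56840. The part of these markers in the 2 calls was not tested.

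In line-derived tumours most members passed in at least 1 comparison between lines. Of the 40 members, 24 passed between UPPL1541 and BBN963 tumours, 37 between UPPL1541 and MB49 tumours and 27 between BBN963 and MB49 tumours. The 3 comparisons share tumours and 1 fit of 14604 genes. Group means ran UPPL1541, BBN963, MB49 from lowest to highest in 31 of 40 members (20 of 24 mitotic, 7 of 11 S phase and 4 of 5 regulator genes), an order found in 14.7% of all genes tested.

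Between UPPL1541 and BBN963 tumours, 1 member was higher in UPPL1541 and 23 were lower, where 21.4% of all genes were higher and 7.37% lower (28.8% in all). Those lower were 18 of 24 mitotic and 5 of 11 S phase genes. Over mitotic genes the median difference was -0.78, over S phase genes -0.50 and over regulator genes -0.13, against 0.32 over all genes. Members lay wholly lower in UPPL1541 in 27 cases (13.8% of genes) and wholly higher in 1 (32.1%). Values of 2 BBN963 tumours carry this comparison; without tumour 1, 21 members passed.

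Ccnb2 (gene ID 12442), which encodes cyclin B2, stood at 559.1, 556.7, 717.7 and 450.1 in the UPPL1541 tumours and at 1415.0 and 1727.9 in the BBN963 tumours. All 4 lay far below both (log2 difference -1.47, SE 0.185, limma adjusted p = 0.000315). Cdk1 stood at 1205.5, 1504.6, 1260.3 and 1313.5 against 2615.5 and 2856.6 (-1.05, SE 0.137, adjusted p = 0.000388). Prc1, which bundles the microtubules of the central spindle, stood at 1143.4, 975.2, 889.0 and 802.6 against 2055.8 and 2410.5 (-1.24, SE 0.165, limma adjusted p = 0.000462). None of these groups overlapped. Cdc20 was lower here too, at 627.2, 705.3, 768.6 and 708.5 against 2053.3 and 1300.2, with the BBN963 tumours apart from each other (-1.22, limma adjusted p = 0.000937). Mki67, at 3873.4, 2637.5, 3140.1 and 2721.0 against 4123.1 and 4165.4, did not pass (-0.44, limma adjusted p = 0.0911).

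Mcm2 (gene ID 17216) was the member that was higher in UPPL1541. It stood at 1590.2, 1633.6, 1523.5 and 1637.4 in UPPL1541 tumours and at 823.6 and 876.2 in BBN963 tumours, with no overlap (0.91, SE 0.162, limma adjusted p = 0.00236). Mcm3, its partner in the same ring, stood at 692.0, 630.9, 875.4 and 572.3 against 1747.0 and 1665.5 (-1.32, SE 0.172, adjusted p = 0.000396). So Mcm2 was high and Mcm3 low in the same 4 tumours. Mcm5 stood at 865.0, 966.1, 1141.1 and 1025.3 against 1920.1 and 1784.3 (-0.90, limma adjusted p = 0.00459). Rrm2 stood at 1022.7, 822.7, 912.6 and 934.8 against 1954.3 and 1984.1 (-1.10, limma adjusted p = 0.00092), and Mcm6 was also lower. Each of these S phase genes was separated without overlap. The other helicase genes, Mcm4 (0.07, limma adjusted p = 0.736) and Mcm7 (-0.09, limma adjusted p = 0.659), did not pass. Pcna, at 939.1, 1061.3, 1264.0 and 970.5 against 1582.5 and 1529.4, was lower (-0.56, limma adjusted p = 0.0146), but missed the threshold without BBN963 tumour 1 (0.083) or tumour 2 (0.0522). Ccnb1 was lower (433.7, 541.1, 358.8 and 340.6 against 713.2 and 800.2, adjusted p = 0.00953) and missed the threshold without BBN963 tumour 2 (0.0595).

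Against MB49 tumours, UPPL1541 tumours were lower in 37 members and higher in 0, where 22.6% of all genes were lower and 27.3% higher (49.9% in all). The 37 were 22 of 24 mitotic, 10 of 11 S phase and all 5 regulator genes. The median log2 difference was -1.28 over mitotic, -0.76 over S phase and -1.26 over regulator genes, against 0.05 over all genes. All 4 UPPL1541 tumours lay below all 4 MB49 tumours in 37 members, as in 21.8% of genes.

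Ccna2, which encodes the cyclin A2 of S phase and G2, stood at 1423.4, 1300.9, 1399.4 and 1325.1 in UPPL1541 and at 4528.0, 4249.2, 4856.6 and 4525.3 in MB49 tumours (-1.74, SE 0.0992, limma adjusted p = 1.21e-07). Mcm6 stood at 1234.2, 1147.3, 1383.2 and 1313.5 against 3893.9, 3583.6, 4190.8 and 4031.5 (-1.63, SE 0.104, adjusted p = 3.11e-07). Both genes were tight within each line and far apart between lines. Prc1 in MB49 tumours stood at 3514.0, 3996.6, 4481.9 and 3738.9 (-2.05, SE 0.135, limma adjusted p = 3.8e-07), and Mcm3 at 2606.5, 2215.1, 2606.0 and 2346.5 (-1.83, SE 0.141, limma adjusted p = 1.32e-06). Mki67 in MB49 tumours stood at 6378.8, 7661.1, 9137.5 and 7657.3, above every UPPL1541 tumour (-1.32, limma adjusted p = 2.58e-05). Top2a stood at 4341.7, 3941.3, 4209.1 and 3668.9 in UPPL1541, 7262.7 and 6324.8 in BBN963 and 9679.5, 8149.3, 11404.1 and 9587.4 in MB49 tumours, 3 ranges that did not overlap.

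The members that did not pass between UPPL1541 and MB49 tumours were Cdc20, Cenpa and Tyms. Cdc20 stood at 880.3, 870.9, 801.7 and 864.8 in MB49 tumours (-0.285, limma adjusted p = 0.14). Cenpa, the centromeric histone, stood at 986.9, 1359.8, 896.5 and 931.2 in UPPL1541 and 1367.3, 1271.6, 1246.3 and 1311.2 in MB49 (-0.34, limma adjusted p = 0.0821). Tyms stood at 730.0, 749.7, 1064.1 and 680.0 in UPPL1541 and at 1089.5, 793.5, 867.8 and 878.8 in MB49 (-0.18, limma adjusted p = 0.384). Their UPPL1541 and MB49 values lay close together or overlapped. Mcm5, at 1055.2, 1437.7, 1580.0 and 1504.7 in MB49, was lower in UPPL1541 (-0.47, limma adjusted p = 0.0212), but missed the threshold without MB49 tumour 3 (0.0656), MB49 tumour 4 (0.0603) or UPPL1541 tumour 1 (0.0592).

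Between BBN963 and MB49 tumours, 2 members were higher in BBN963 and 25 were lower (15 mitotic, 6 S phase and 4 regulator genes), where 15.8% of all genes were higher and 26.1% lower (41.9% in all). The median log2 difference was -0.61 over mitotic and -0.51 over S phase genes, against -0.24 over all genes. The 2 that were higher are among those that had not passed between UPPL1541 and MB49: Cdc20 (0.94, SE 0.185, limma adjusted p = 0.0019) and Cenpa, at 2310.9 and 1817.4 in BBN963 (0.66, SE 0.182, limma adjusted p = 0.0131). Cenpa missed the threshold without BBN963 tumour 1 (0.14). Mcm2, at 3150.9, 2139.2, 3064.0 and 2552.4 in MB49 tumours, was lower in BBN963 (-1.66, SE 0.162, limma adjusted p = 1.27e-05), as was Kif23, at 364.2 and 767.2 against 1772.1, 1738.5, 2236.7 and 1727.3 (-1.81, limma adjusted p = 0.000268). Rrm2 was lower (-0.66, limma adjusted p = 0.00808) but not without BBN963 tumour 1 (0.0507), Top2a (-0.51, 0.0191) not without tumour 2 (0.135), and Ccnb1 (-0.61, 0.0326) not without either BBN963 tumour or without MB49 tumour 2, 3 or 4 (0.0516 to 0.169). Over the members, 19 passed without BBN963 tumour 1, and 17 without the 5 libraries of coarse low values. Members lay wholly lower in BBN963 in 27 cases (32.2% of genes) and wholly higher in 3 (21.3%), which are Mcm5, Cdc20 and Cenpa.

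Of the regulators, E2f1 and Foxm1 had their highest values in MB49 tumours. E2f1 stood at 247.3, 163.0, 232.2 and 210.8 in UPPL1541, 173.9 and 216.9 in BBN963 and 755.5, 864.2, 810.2 and 692.3 in MB49 tumours. The first 2 lines overlapped and every MB49 tumour lay above them (UPPL1541 minus MB49 -1.88, limma adjusted p = 1.27e-05; BBN963 minus MB49 -1.997, SE 0.235, adjusted p = 5.41e-05). Foxm1 stood at 1093.2, 731.4, 898.9 and 738.3, at 935.3 and 848.0, and at 2175.9, 1600.4, 2709.0 and 1843.8, and was lower in both lines than in MB49 (limma adjusted p = 0.000195 and 0.00144). Cdc6, at 164.9, 159.1, 209.8 and 122.7 in UPPL1541, 246.2 and 171.6 in BBN963 and 334.0, 222.2, 448.8 and 431.2 in MB49, was lower in UPPL1541 than in MB49 (-1.10, limma adjusted p = 0.00831) and did not pass in the other comparisons.

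**Figure D2:**
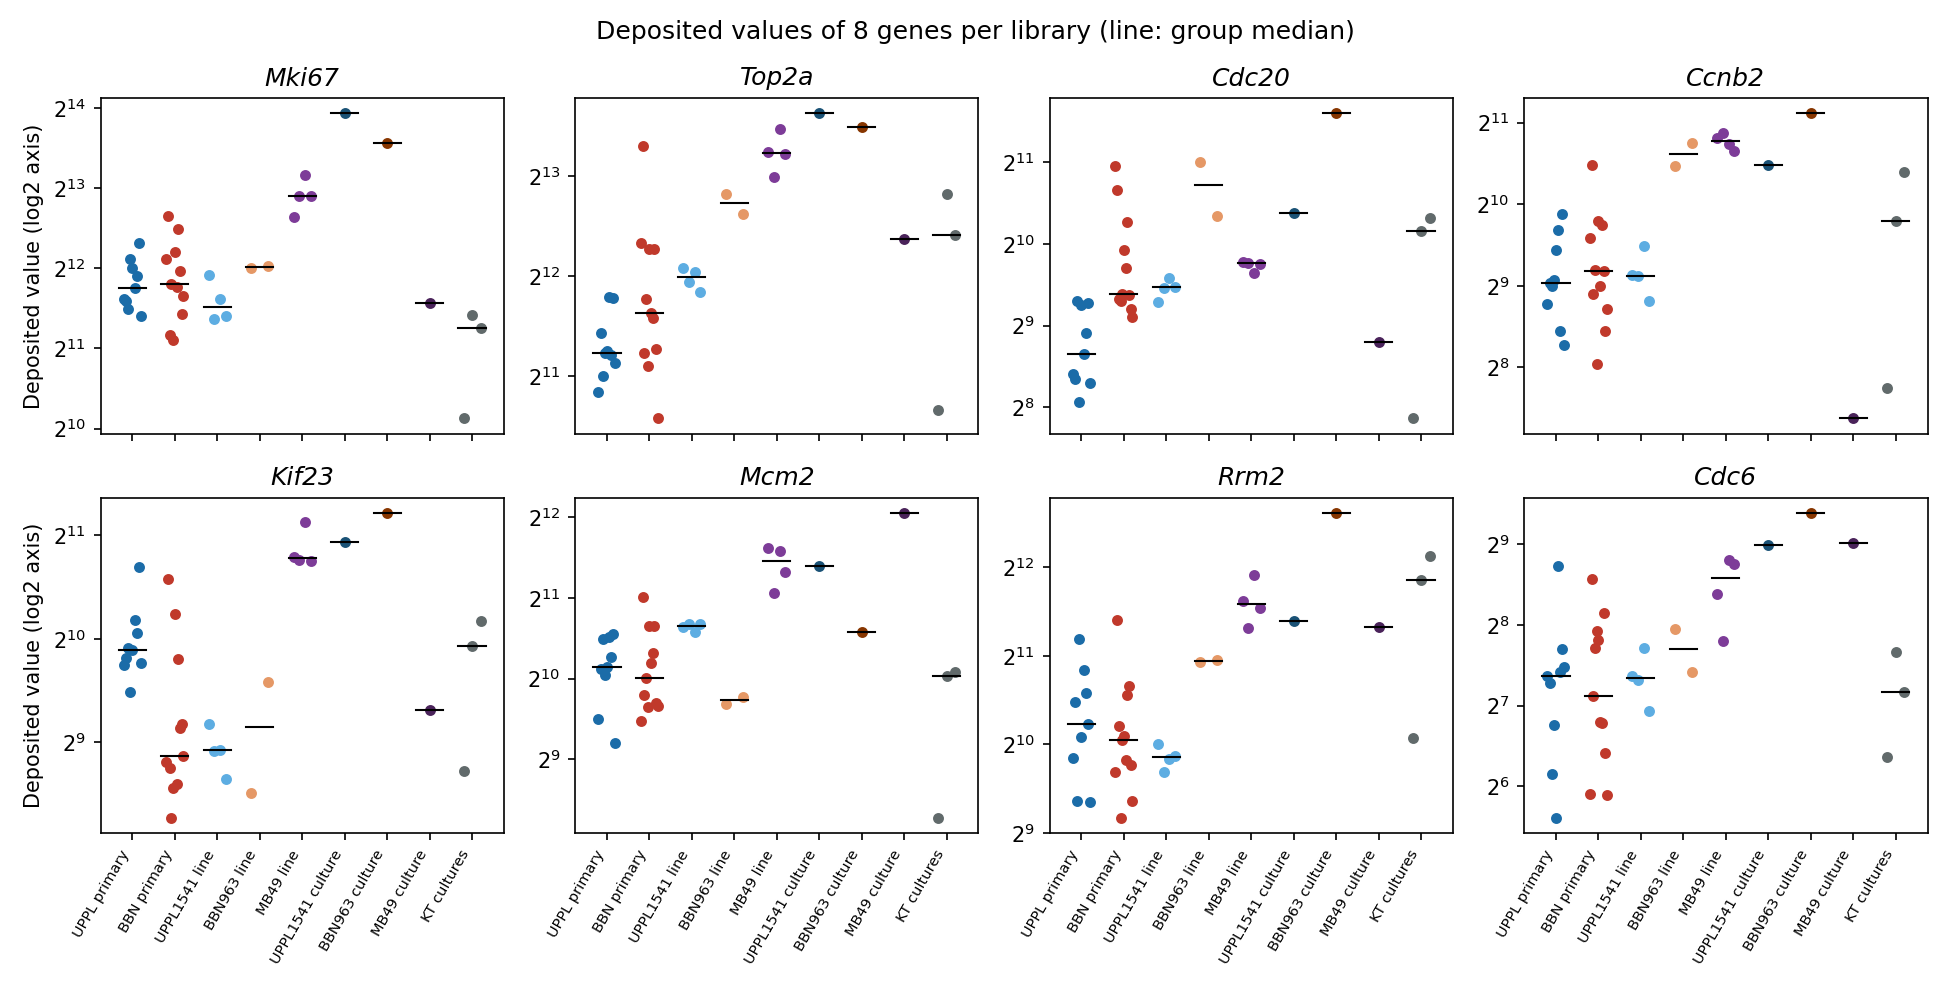
Deposited values (vertical axis, log2 scale) of Mki67, Top2a, Cdc20, Ccnb2, Kif23, Mcm2, Rrm2 and Cdc6 in each library (points) by group (horizontal axis), with a line at each group's median. Ccnb2 shows the MB49 culture, at 165.7, far below the 4 MB49 tumours, while Mcm2 shows the same culture, at 4246.7, above them.

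Genes of the same pathways outside the 40 were counted in these comparisons. Over all genes, 7.37% were lower and 21.4% higher in UPPL1541 than in BBN963 tumours. Against MB49 tumours, 22.6% were lower and 27.3% higher in UPPL1541, and 26.1% were lower and 15.8% higher in BBN963. Of 40 further mitotic genes, 12 were lower in UPPL1541 than in BBN963 tumours, 39 were lower in UPPL1541 than in MB49 tumours, and 29 were lower in BBN963 than in MB49 tumours, with 0 higher in each. Anln, which encodes the contractile ring protein anillin, differed between UPPL1541 and MB49 by -2.30 (limma adjusted p = 9.78e-08), Ndc80 by -1.78 and Nuf2 by -2.19. Of 35 further replication genes, 10 were lower and 1 higher against BBN963 and 26 were lower against MB49 in UPPL1541, and 17 were lower and 2 higher in BBN963 against MB49. E2f8, a repressive E2F gene, was lower than in MB49 in both UPPL1541 (-1.98, limma adjusted p = 7.84e-07) and BBN963 (-2.14, 3.24e-06).

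The cell types in these tumours also differed. Of 9 macrophage markers, 8 were lower in UPPL1541 and 8 in BBN963 than in MB49 tumours, with summed levels of 8004 to 15153, 6376 to 8565 and 20571 to 30312. Summed epithelial markers stood at 271446 to 361666, 404061 to 417209 and 16188 to 26308, with Cldn4 at 0 in all 4 MB49 tumours. Not every epithelial marker was low in MB49. Of the 10, 8 were higher and 2, Krt8 and Krt18, were lower in UPPL1541 than in MB49 tumours, and likewise in BBN963. Summed fibroblast markers stood at 76497 to 379802 in UPPL1541, 87396 to 114665 in BBN963 and 15507 to 112561 in MB49. The part of these markers in the differences of S phase and mitotic genes was not tested.

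**Figure D3:**
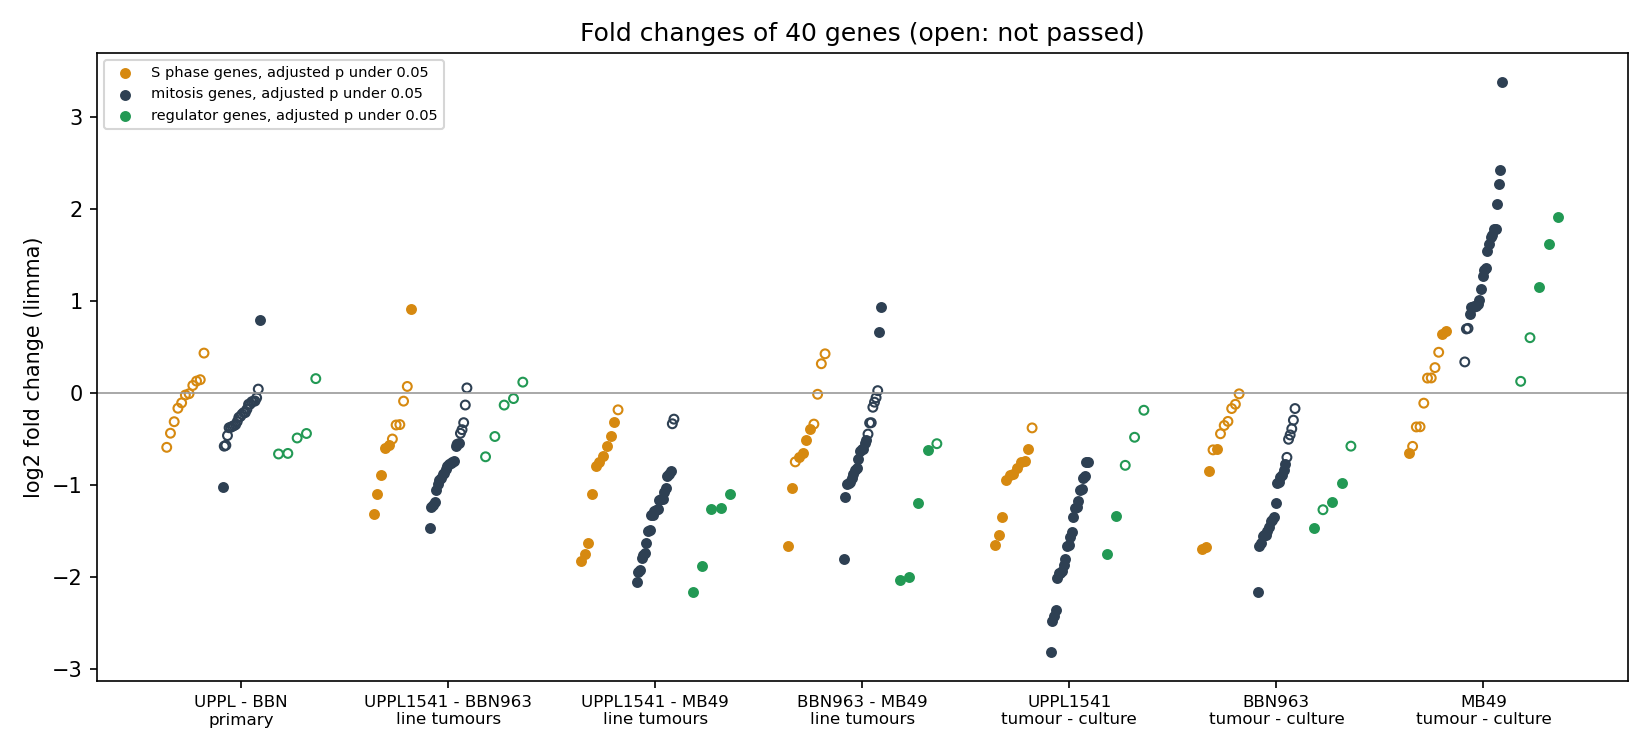
Log2 difference (vertical axis) of each member (points, coloured by S phase, mitotic and regulator genes and ordered by value) in 7 comparisons (horizontal axis), filled for a limma adjusted p under 0.05 and open otherwise. Among primary tumours only Cdc20 and Kif23 are filled, while in UPPL1541 minus MB49 tumours 37 filled points lie below 0, and MB49 is the line whose tumours lie mostly above their culture.

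Line-derived tumours were then set beside primary tumours of the same model, which share the primary tumours with the first comparison. Against 9 primary UPPL tumours, the 4 UPPL1541 tumours were higher in 5 members and lower in 1 of 40, where 20.5% of 15229 genes were higher and 5.98% lower (26.5% in all). The median log2 difference was 0.40 over members and 0.37 over all genes. Kif23, at 577.1, 483.7, 485.5 and 400.1 in UPPL1541 tumours, lay below every primary UPPL tumour (-1.03, SE 0.327, limma adjusted p = 0.0203). Higher were Mcm7 (0.63, SE 0.212, limma adjusted p = 0.0276), Cenpa (1.01, 0.0279), E2f1 (1.09, 0.0288), Tk1 (0.89, 0.0317) and the spindle motor gene Kif11 (0.81, 0.0388). Groups did not overlap in 6 members that lay higher (12.9% of genes) and 1 that lay lower (3.32%). In the same comparison 8 of 8 fibroblast markers (median 7.32), 8 of 9 macrophage markers (3.35) and 4 of 8 T cell markers (2.57) were higher in UPPL1541 tumours, and 6 of 10 epithelial markers were lower and 1 higher. Summed fibroblast markers stood at 76497 to 379802 in UPPL1541 tumours and at 364 to 7027 in primary UPPL tumours; the part of these markers in the calls was not tested.

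The 5 higher calls depended on the scaling. Under quantile normalization, median-of-ratios scaling or edgeR, Kif23 was the only member that passed. The median of all genes was 0.37 in the main fit and -0.08, 0.19 and 0.02 in these. Whether this shift accounts for the lost calls was not tested. Leaving out UPPL1541 tumour 1, 2, 3 or 4 left 1, 2, 2 or 0 members; with tumour 4 out, Kif23 had an adjusted p of 0.0699. E2f1 missed the threshold without tumour 1 (0.0867), tumour 3 (0.0794) or tumour 4 (0.0663). Kif11 missed it also without primary UPPL1541, UPPL1595 or UPPL1695 (0.0545 to 0.0618), and Tk1 without primary UPPL1541 (0.0543) or UPPL1695 (0.054).

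Against 11 primary BBN tumours, the 2 BBN963 tumours were higher in 4 members and lower in 0, where 2.09% of genes were higher and 5.67% lower (7.76% in all). These were Cenpa (1.75, SE 0.434, limma adjusted p = 0.0125), Ube2c (1.47, SE 0.389, adjusted p = 0.0193), Cdk1 (1.26, SE 0.358, adjusted p = 0.0287) and Ccnb2 (1.42, SE 0.423, adjusted p = 0.0378), all mitotic. Over members the median difference was 0.87, and over all genes -0.17. Tyms, Cenpa and Kif11 lay wholly above the primary BBN tumours, as 5.42% of genes did. Without BBN963 tumour 1, or without tumour 2, 0 members passed in limma, without primary BBN962 8 and without primary BBN963 13. Ccnb2 also missed the threshold without primary BBN976 (0.0518). Of the markers, 3 of 8 for T cells (median 4.09) and 1 of 8 for fibroblasts (2.89) were higher in BBN963 tumours and 3 of 10 for epithelium were lower (-0.83), while 0 of 9 for macrophages passed (1.39, 3 with an unadjusted p under 0.05); their part in the calls was not tested.

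Whether the UPPL minus BBN difference was another in line-derived than in primary tumours was tested as an interaction, and 0 of 40 members passed in limma (9.22% of genes). Without adjustment 4 of 40 had a p under 0.05, and edgeR on recovered reads called 1. Leaving out primary BBN963 gave 2 members, and leaving out primary BBN969, UPPL1591, UPPL1595 or UPPL1695 gave 1 each. Nearest was Prc1, with a difference of -1.15 (SE 0.379, limma adjusted p = 0.0545).

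Tumours and cultures of the same 3 lines were compared with line as a term. In this shared term 5 members were lower in tumours and 0 higher, where 8.99% of 14321 genes were lower, 20.1% were higher and 29.1% passed in all. The 5 were all S phase genes: Mcm2 (-0.75, SE 0.132, limma adjusted p = 0.00111), Cdc6 (-1.29, SE 0.300, adjusted p = 0.00642), Mcm4 (-0.55, SE 0.141, adjusted p = 0.0104), Mcm3 (-0.70, SE 0.199, adjusted p = 0.0191) and Rrm2 (-0.94, SE 0.282, adjusted p = 0.0242). Of 24 mitotic genes 0 passed in limma, 4 had an unadjusted p under 0.05 and 7 passed with edgeR. Over members the median difference was -0.50, and over all genes 0.13. These counts rest on single cultures: without the MB49 culture 34 members passed, without the UPPL1541 culture 1 (Mcm2), and without the BBN963 culture Rrm2 had an adjusted p of 0.141. The count was 14 with edgeR and 8 with median-of-ratios scaling.

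The lines went in opposite directions, so each line was then given its own tumour minus culture term. These terms came from 1 joint fit of all lines, so they share the spread of the tumours of every line. This comparison was added after the opposite directions had been seen; each culture is 1 library, assumed to vary as the tumours do. UPPL1541 tumours were lower than their culture in 36 of 40 members (24 of 24 mitotic, 10 of 11 S phase and 2 of 5 regulator genes), where 8.18% of genes were lower and 25.6% passed. BBN963 tumours were lower in 25 (18 mitotic, 4 S phase and 3 regulator genes), where 11.4% of genes were lower and 22.9% passed. MB49 tumours were higher in 26 (21 mitotic, 2 S phase and 3 regulator genes) and lower in 1, where 24.1% of genes were higher, 7.0% lower and 31.1% passed. Median log2 differences over mitotic genes were -1.61, -1.09 and 1.30, and over S phase genes -0.88, -0.44 and 0.16; over all genes they were 0.22, -0.16 and 0.39.

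In the UPPL1541 culture Mki67 (gene ID 17345) stood at 15648.9, against 2637.5 to 3873.4 in the tumours of that line (-2.36, SE 0.23, limma adjusted p = 2.53e-05). Cenpf, a kinetochore protein gene, stood at 4740.4 in the culture and at 915.2, 580.2, 609.6 and 629.9 in the tumours (-2.82, SE 0.248, adjusted p = 1.18e-05). Bub1, a spindle checkpoint kinase gene (-2.48), and Tpx2, a spindle assembly factor gene (-1.96), were lower in the tumours as well. Cdt1, Gmnn, Tyms and Tk1 did not pass. Tumours all lay below the culture in 38 of 40 members, as in 29.3% of genes. Pcna (limma adjusted p = 0.0346) and Mcm5 (0.0367) missed the threshold when UPPL1541 tumour 1 (0.0566 and 0.0614) or tumour 4 (0.0639 and 0.0559) was left out, Mcm5 also without tumour 2 (0.0528), and Pcna also without MB49 tumour 3 (0.0503).

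In the BBN963 culture Rrm2, the regulated subunit of ribonucleotide reductase, stood at 6277.4 against 1954.3 and 1984.1 in the tumours (-1.67, SE 0.231, limma adjusted p = 0.000407). Kif20a, a kinesin of cytokinesis, stood at 3880.0 against 1502.0 and 1255.4 (-1.50, SE 0.203, adjusted p = 0.000359), Cdk1 at 6254.3 against 2615.5 and 2856.6 (-1.19, adjusted p = 0.00117) and Mki67 at 12149.6 against 4123.1 and 4165.4 (-1.55, limma adjusted p = 0.00121). Both tumours lay below the culture in 39 of 40 members, as in 46.8% of genes. Several calls in this line rested on 1 tumour. Without tumour 1, 5 of the 25 calls were lost and 1 was gained. Among those lost were Mcm2, Foxm1 and E2f1 (limma adjusted p 0.0634 to 0.0794). Without tumour 2, 6 were lost and 1 was gained, and Cdc6, Top2a, Cdc20 and Foxm1 were among those lost (0.0713 to 0.108). Foxm1 also missed the threshold without MB49 tumour 1 or 4 or UPPL1541 tumour 3 or 4 (0.051 to 0.0604).

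In the MB49 culture the mitotic genes were low beside the tumours of the line. Ccnb2 stood at 165.7 against 1796.0, 1867.6, 1707.9 and 1607.2 in the tumours (3.39, SE 0.24, limma adjusted p = 1.35e-06). Cenpa stood at 240.9 against 1246.3 to 1367.3 (2.43, SE 0.236, adjusted p = 1.4e-05), and Kif20a at 543.1 against 2206.5, 2202.1, 2556.6 and 2102.4 (2.06, SE 0.186, adjusted p = 8.23e-06). For these genes the culture was far below every tumour. Mki67 stood at 3035.4 against 6378.8 to 9137.5 (1.33, limma adjusted p = 0.00108), Cdk1 at 1527.3 against 3211.2, 2630.8, 3053.3 and 2860.1 (0.94, adjusted p = 0.00186), and Top2a at 5313.4 against 8149.3 to 11404.1 (0.86, adjusted p = 0.00541). S phase genes of the same culture were mixed. Rrm1 stood at 2578.7 against 3438.9 to 4813.4 in the tumours (0.67, limma adjusted p = 0.0416) and Mcm6 at 2515.1 against 3583.6 to 4190.8 (0.64, limma adjusted p = 0.0122), so both were higher in tumours. Under median-of-ratios scaling or edgeR neither passed, and Rrm1 also missed the threshold under quantile normalization, without a filter, and without MB49 tumour 1, 3 or 4 or UPPL1541 tumour 1 (0.05 to 0.0789). For Tyms, Mcm7 and Pcna the culture also lay below all 4 tumours. Mcm2 stood at 4246.7 and the tumours were lower (-0.66, SE 0.208, limma adjusted p = 0.032), Pcna stood at 1405.0 against 1595.2, 1536.5, 1519.2 and 1637.5, Rrm2 at 2563.2 and Cdc6 at 518.4. All 24 mitotic genes of all 4 tumours lay above the culture, as did 33 of 40 members and 6309 of 12565 genes. In all 4 tumours 5 members, all S phase, lay below it (25.9% of genes). Mcm2 had an adjusted p of 0.0603 without MB49 tumour 4.

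The difference between lines was tested as the MB49 change minus the mean change of UPPL1541 and BBN963, also added after the directions had been seen. It was positive and passed in 33 members (24 of 24 mitotic, 5 of 11 S phase and 4 of 5 regulator genes) and negative in 0, where 14.9% of genes were positive, 5.8% negative and 20.7% passed. The median was 2.71 over mitotic and 0.88 over S phase genes, against 0.39 over all genes. It was 3.64 for Kif20a (SE 0.231, limma adjusted p = 1.79e-06), 4.31 for Ccnb2 (SE 0.299, 3.97e-06), 2.66 for Ccna2 (SE 0.195, 5.62e-06) and 3.36 for the checkpoint kinase gene Bub1b (SE 0.275, 1.15e-05). Tyms, Pcna, Cdc6, Cdt1, Mcm4, Mcm2 and Mcm5 did not pass, and the last had a difference of 0.01. Of 40 further mitotic genes 38 were positive, with Cdca3 at 3.16 (limma adjusted p = 7.14e-06), Ndc80 at 2.23 and Nuf2 at 2.67; of 35 further replication genes 17 were positive, with Cdc45 at 1.58 (0.0135), while Mcm10 at 0.51 did not pass. Of 13 inhibitor and arrest genes, 2 passed as positive and 3 as negative, with a median of -0.013 over the list. Gadd45a (-3.60, limma adjusted p = 0.0002) and Cdkn1a (-2.48, 0.000952) were negative, and Cdkn2d, an inhibitor of Cdk4 and Cdk6, was positive (4.20, 4.36e-05).

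Tumours grown in mice also hold host cells. Of 9 macrophage markers, 8, 6 and 8 were higher in tumours than in culture for UPPL1541, BBN963 and MB49, and all 7 endothelial markers were higher in each line. For fibroblasts, 8, 6 and 7 of 8 markers were higher (medians 11.955, 9.207 and 8.328). In the cultures, summed macrophage markers stood at 3382, 869 and 773, with Emr1, C1qa, C1qb, C1qc and Fcgr1 at 0 in all. Summed epithelial markers were 7594 in the MB49 culture, with Epcam, Krt19, Krt7, Cldn4 and Trp63 at 0, against 235574 and 231964 in the UPPL1541 and BBN963 cultures. In the MB49 change minus the mean change of UPPL1541 and BBN963, 9 of 9 macrophage markers were positive and 2 passed (median 1.705). Of 7 endothelial markers, 3 were positive and 1 passed as positive (median -0.57), where 14.9% of genes passed as positive. Fibroblast markers went the other way: 7 of 8 were negative and 2 passed as negative (median -2.627), where 5.8% of genes did. All 10 epithelial markers were positive and 6 passed (median 4.124). For T cells, 7 of 8 markers were positive and 0 passed (median 2.104). The part of these markers in the result was not tested.

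The 3 KT cultures have no tumours and were only described. KT1044 was the lowest of the 3 in 40 of 40 members, and KT1975 was the highest in 23 and KT1970 in 17. Mki67 stood at 1118.1 in KT1044, 2723.9 in KT1970 and 2441.8 in KT1975, and Top2a at 1615.5, 7266.2 and 5465.0. Ccnb2 stood at 215.4, 884.5 and 1349.4, Rrm2 at 1073.7, 3711.8 and 4489.8, and Mcm2 at 308.7, 1048.4 and 1083.6. KT1044 was thus the lowest of the 3 KT cultures in S phase and mitotic genes alike. How often it was the lowest over all genes was not counted.

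**Figure D4:**
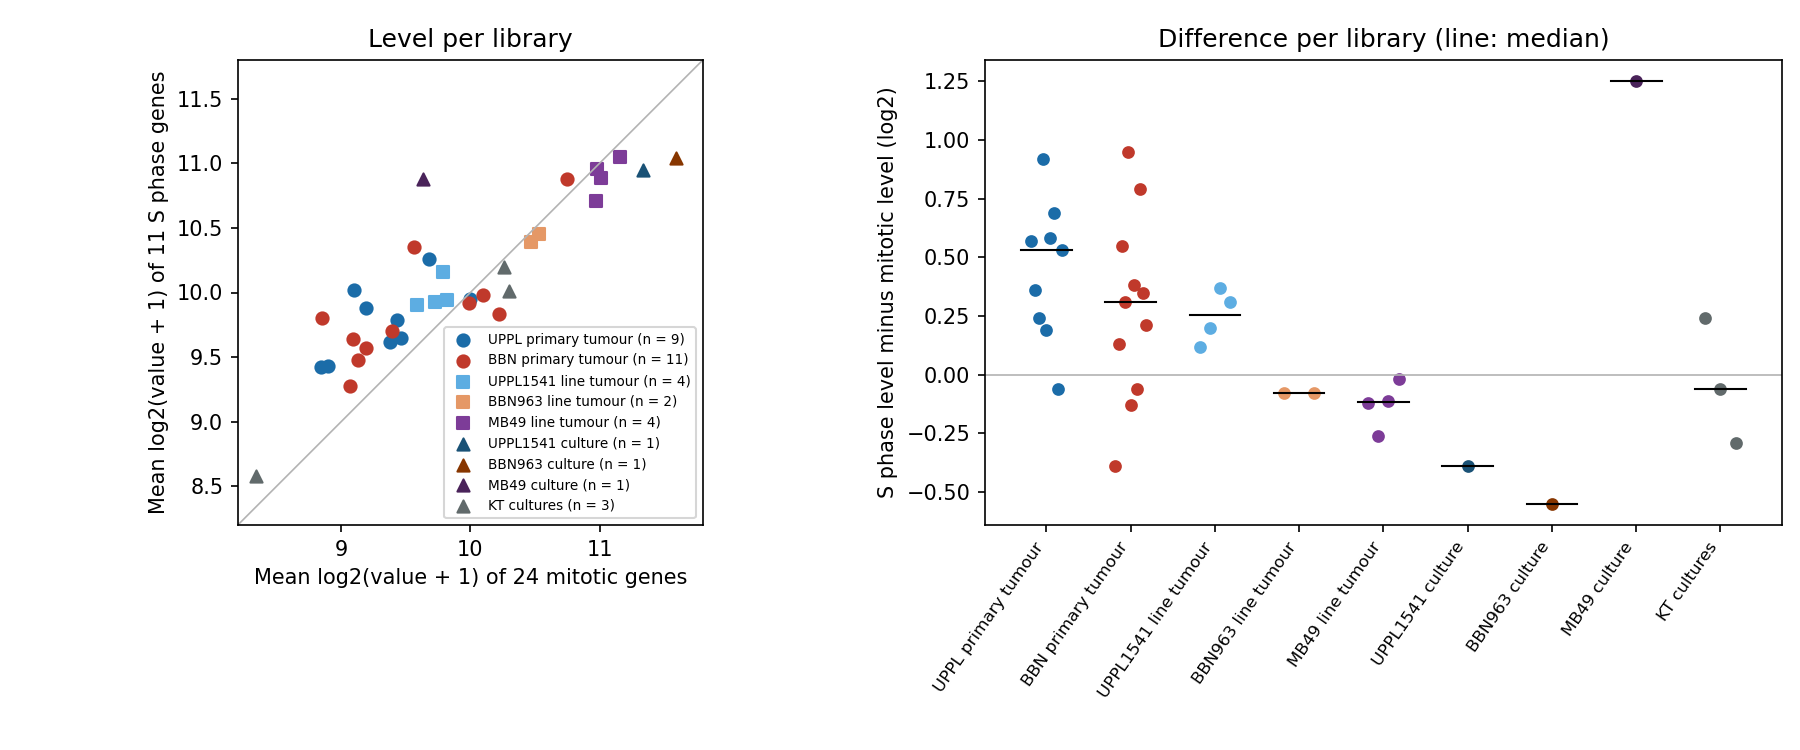
Left, mean log2(value + 1) of the 11 S phase members (vertical axis) against that of the 24 mitotic members (horizontal axis) in each of the 36 libraries, with a line where both are equal; right, their difference per library by group, with a line at the median. The MB49 culture, at 10.88 for S phase and 9.63 for mitotic genes, lies farthest above the line, and KT1044, at 8.58 and 8.34, lies at the lower left.

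The balance of S phase and mitotic genes was described as the mean log2 value of the 11 S phase genes minus that of the 24 mitotic genes in each library, which can be read only between libraries. It had a median of 0.53 in primary UPPL tumours (from -0.06 in UPPL1694 to 0.92 in UPPL1595) and 0.31 in primary BBN tumours (from -0.39 in BBN962 to 0.95 in BBN968), so the models overlapped widely. In line-derived tumours it was 0.12, 0.20, 0.37 and 0.31 for UPPL1541, -0.08 and -0.08 for BBN963, and -0.12, -0.26, -0.11 and -0.02 for MB49. With these means the 4 UPPL1541 tumours lay above all other line-derived tumours; with medians over members they overlapped, from 0.29 to 0.58 in UPPL1541, at 0.25 and 0.30 in BBN963 and from 0.12 to 0.44 in MB49 tumours. Cultures stood at -0.39 for UPPL1541, -0.55 for BBN963 and 1.25 for MB49, and at 0.24, -0.06 and -0.29 for KT1044, KT1970 and KT1975. The MB49 culture had the highest balance of the 36 libraries with means and with medians over members. Its S phase level of 10.88 was close to those of the UPPL1541 (10.95) and BBN963 (11.04) cultures, and its mitotic level was 9.63 against 11.34 and 11.59.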

How the data were processed

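RNA was isolated with Qiagen RNeasy and sequenced from TruSeq Stranded mRNA libraries, per the labels' protocols. The authors deposited 1 table of signal values for 21705 genes and 36 libraries, per the file headers RSEM gene estimates, scaled to an upper quartile of 998.9 to 1000 among values above 0. RSEM, Picard 1.64, SAMtools and mm9 are named in the submitters' processing notes. Values divided by each library's smallest step were whole (within 0.02) for 91.9 to 96.3% of values above 0; these recovered reads total 9.29 to 17.93 M per library.

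The test was limma 3.58.1 with a variance trend (R 4.3.3), on log2(value + 1), which understates fold changes of low genes. Genes reached 10 units in at least 9 libraries (primary), 2 (line-derived, and line-derived with primary) or 3 (with cultures). The p-values were adjusted over all genes tested by Benjamini-Hochberg. Primary tumours, line-derived tumours, and UPPL and BBN tumours of both kinds were separate fits. Tumours with cultures were fitted with a shared term and, in another fit of the same libraries, with a term for each line. The members and lists were chosen with earlier results of these data known. Genes given by value were 13 fixed members and, in each comparison, up to 4 members with the smallest adjusted p per direction; from each further list, the first 2 genes and up to 2 with the smallest adjusted p. Members outside this rule were named after their values were seen. An item of the UPPL genotype label and some genes of the rule are not reported here.

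Alternatives were a pseudocount of 10, no filter, a filter at 100 units, array weights, quantile normalization, median-of-ratios scaling, edgeR 4.0.16 on recovered reads, a replicate block, and leaving out each library or the primary tumours BBN963 and UPPL1541. Leaving out 5 libraries was planned for primary tumours and added for the rest after seeing the data, as was the fit with a term for each line. The scripts were tested on simulated data. Python 3.11.15, numpy 2.4.6, pandas 2.3.3 and matplotlib 3.10.9 were used. Promoters came from RefSeq (GRCm38.p6), a build other than that of the values. They were matched by gene ID.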

Additional observations from a re-analysis of the deposited data

Results flagged for a closer look

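Of 129 tests for a tumour far from the rest of its group, 7 were positive, which is about the number that chance gives at 5% of groups. The tests were made in the 4 UPPL1541, the 4 MB49 and the 9 primary UPPL tumours; the 11 primary BBN tumours form a group too large for this rule and were not tested. In primary tumour UPPL1694, Kif23 was 1657.3 (718.1 to 1161.3 in the other UPPL tumours) and Cenpf was 2658.3 (194.8 to 920.1 in the others). In UPPL1598, Cdc6 was 423.1 (48.7 to 207.8 in the others) and Cdt1 was 475.3 (120.8 to 252.1). Among line-derived tumours, Kif23 was 2236.7 in MB49 tumour 3 (1727.3 to 1772.1 in the others), and Cenpf was 915.2 in UPPL1541 tumour 1 (580.2 to 629.9). The mean S phase level was 10.16 on the log2 scale in UPPL1541 tumour 3 (9.9 to 9.94 in the others). The change from culture to tumour differed in 33 members between MB49 and the mean of UPPL1541 and BBN963, by a limma test of the difference; each culture is 1 library assumed to vary as the tumours do, and this contrast was chosen after the opposite directions were seen.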

How the results depend on the processing

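Without the 5 libraries of coarse low values (10 reads or more), 1 member passed among primary tumours, 17 between BBN963 and MB49 tumours and 0 between BBN963 tumours and primary BBN tumours. For UPPL1541 against primary UPPL tumours, quantile normalization, median-of-ratios scaling and edgeR each gave 1, and array weights 21; for BBN963 against primary BBN tumours median-of-ratios scaling gave 10, array weights 16 and leaving out primary tumours BBN963 and UPPL1541 13. The interaction gave 2 with array weights and 1 each under quantile normalization, median-of-ratios scaling, edgeR and without those 2 primary tumours. Tumours against cultures gave 8, 14 and 14 under median-of-ratios scaling, array weights and edgeR. The cause of these changes was not tested. With medians over members in place of means, the S phase minus mitotic balance was 0.28 in BBN963, 0.26 in MB49 and 0.48 in UPPL1541 tumours, 1.9 in the MB49 culture and -0.15 in the UPPL1541 culture; quantile normalization gave 1.15 in the MB49 culture.

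Leaving out 1 library at a time, the members called ranged from 1 to 3 (primary), 21 to 25 (UPPL1541 minus BBN963), 35 to 37 (UPPL1541 minus MB49), 19 to 28 (BBN963 minus MB49), 0 to 9 (UPPL1541 minus primary UPPL), 0 to 13 (BBN963 minus primary BBN), 0 to 2 (interaction) and 1 to 34 (tumours minus cultures). By line they ranged from 32 to 36 (UPPL1541), 20 to 25 (BBN963), 24 to 28 (MB49) and 32 to 34 (difference).

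Sign changes occurred among primary tumours in members that had not passed. The log2 difference turned to 0.034 (Mcm2) and 0.351 (Cdc6) under quantile normalization; to 0.066 (Mki67), 0.110 (Mcm2), 0.011 (Mcm5) and 0.095 (Cdc6) under median-of-ratios scaling; to 0.143 (Cdc6) with array weights; to 0.037 (Mki67), 0.104 (Mcm2) and 0.094 (Cdc6) with edgeR; and to -0.015 (Rrm2) and 0.128 (Cdc6) without the 5 libraries. Leaving out 1 library, it ran from -0.128 to 0.028 (Mki67), -0.071 to 0.102 (Mcm2), -0.173 to 0.015 (Mcm5), -0.216 to 0.170 (Cdc6) and -0.020 to 0.185 (Tyms).

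With the tumour number as a replicate block, 22 members passed between UPPL1541 and BBN963, 36 between UPPL1541 and MB49 and 23 between BBN963 and MB49 tumours. The numbers share no stated origin: over 8 same-numbered pairs the correlation of deviations ran from -0.093 to 0.066, and in 5 of 20 checks of a tumour against another line, the best correlation was with its own number. Genes of few reads were coarsely measured in the tumours, where the commonest low value reached 19 reads, against 1 read in the cultures. Recovered reads ran from 9.29 to 17.93 M in the tumours and from 11.33 to 15.45 M in the cultures. The cause of the coarse low values was not tested.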
